A study of Mus musculus with 8 samples.

Results

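Plet1 and the claudins Cldn3 and Cldn4 have been used as markers of putative thymic epithelial progenitors. Cldn6 and Cldn7 are further members of the claudin family. These 5 genes, taken by symbol from the 27514 genes shared by all 8 matrices, were followed through thymic epithelial cells (TEC) of the fetal, newborn and adult mouse, with Psmb11, Aire and Bpifa1 as reference genes. Claudins are membrane proteins with 4 transmembrane stretches that form the strands of tight junctions and set what passes between neighbouring epithelial cells. Plet1 is a glycoprotein held at the cell surface by a lipid anchor and marks epithelial progenitors of the embryonic thymus. Cldn3 and Cldn4 mark the embryonic cells from which Aire-expressing medullary cells arise, Cldn6 is best known from embryonic epithelia, and Cldn7 is widely expressed in adult epithelia.

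All libraries came from wild-type C57BL/6 mice, and viable (DAPI-) EpCAM+ CD45- thymic cells were sorted for droplet sequencing of single cells. There were 8 libraries in 6 groups. The embryonic and newborn groups had 1 library each, namely total TEC from E13.5 embryos, and cortical TEC (cTEC, Ly51+ UEA-1-) from E15.5 and E17.5 embryos and from newborns (NB, 0 to 2 days). Adults of 4 to 6 weeks gave 2 libraries of cTEC and 2 of medullary TEC (mTEC, Ly51- UEA-1+). Each adult group had 1 library in each of the 2 data sets that the study captured, and E17.5 was the other library of data set 2. The labels do not say whether the adult replicates came from separate animals. The p-values below measure the spread of libraries around each fit, which may be technical. With 1 library for each younger stage, that spread includes differences between stages that the slope or contrast leaves unfitted. For the adult lineages, with data set as a term, it is how far their difference varied between the 2 data sets. Postnatal thymi were digested with Liberase and enriched on Percoll, whereas embryonic thymi were dissociated with trypsin and EDTA without enrichment. These steps and age cannot be told apart in a comparison of fetal with postnatal libraries. E13.5 was total TEC, whereas the later libraries of the cortical line were gated on Ly51 and UEA-1. Gate and age therefore cannot be told apart between E13.5 and these libraries, nor in a slope that includes E13.5.

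The epithelial-like cells used here numbered from 493 (adult cTEC replicate 1) to 8350 (E17.5 cTEC) per library, with medians of 3955 to 11386 unique molecular identifiers (UMIs, counted transcripts) per cell and totals of 2158499 to 89998087 UMIs. Of 28 pairs of libraries, the pair sharing most cell barcodes shared 84, and no pair shared more than 1.9% of the smaller library. The summed level of the 8 cTEC markers was 13500 to 20000 CPM (UMIs scaled to a common library size) in adult cTEC against 890 to 1180 CPM in adult mTEC, and that of the 6 markers of Aire-stage mTEC was 125 to 164 CPM against 1720 to 2230 CPM. In the E15.5, E17.5 and NB cTEC libraries the latter sum was 2.64 to 4.11 CPM.

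Among the genes followed, Cldn3 and Cldn4 are neighbours on chromosome 5 and had similar patterns over the libraries. In GRCm38, the build of the counts, Cldn3 (ENSMUSG00000070473) is a gene of 1 exon at chr5:134986214-134987472 on the plus strand, and Cldn4 has 1 exon at chr5:134945119-134946934 on the minus strand, with 39279 bases and 0 annotated genes between them. Plet1 has 4 exons at chr9:50494525-50505482 on the plus strand. Cldn7 lies at chr11:69964779-69967885 and Cldn6 at chr17:23679249-23682446, both on the plus strand, and Cldn6 is 137 bases from Cldn9. The 250 bases before the start site are shown for Cldn3, Cldn4 and Plet1, which moved together over the cortical libraries, as did Cldn7, whose windows are described after them. They are RefSeq sequence (GRCm38.p6) from 5′ to 3′ on the strand of the gene, at chr5:134985964-134986213 (plus), chr5:134946935-134947184 (minus) and chr9:50494275-50494524 (plus), with motif letters in capitals.
Cldn3: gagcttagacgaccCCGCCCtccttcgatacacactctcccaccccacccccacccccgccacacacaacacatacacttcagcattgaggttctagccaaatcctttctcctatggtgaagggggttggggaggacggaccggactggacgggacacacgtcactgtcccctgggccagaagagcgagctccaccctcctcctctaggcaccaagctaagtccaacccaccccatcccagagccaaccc
Cldn4: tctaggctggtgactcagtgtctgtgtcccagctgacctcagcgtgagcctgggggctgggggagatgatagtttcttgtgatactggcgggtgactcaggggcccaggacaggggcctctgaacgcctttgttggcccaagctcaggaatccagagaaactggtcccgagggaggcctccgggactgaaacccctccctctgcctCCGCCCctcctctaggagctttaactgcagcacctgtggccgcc
Plet1: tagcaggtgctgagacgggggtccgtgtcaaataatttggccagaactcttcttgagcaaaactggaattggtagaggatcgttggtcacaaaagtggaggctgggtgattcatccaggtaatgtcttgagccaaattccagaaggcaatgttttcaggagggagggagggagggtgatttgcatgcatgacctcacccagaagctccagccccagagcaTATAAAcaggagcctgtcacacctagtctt
The GC box (CCGCCC) was at 236 to 231 bases before the Cldn3 start and at 44 to 39 bases before the Cldn4 start, and Plet1 held a TATA box (TATAAA) at 30 to 25 bases before its start. Over both strands of 32851 promoter windows of the same length, the GC box was in 32.7% and the TATA box in 12.4%. An ETS motif (GGAAGT), found in 19.7% of windows, and the motif of the grainyhead factors (AACCNGTT), found in 1.79%, were not in these 3 windows. Cldn7, which has 2 start sites in RefSeq and is not shown, held the ETS motif in both windows, at 117 to 112 and at 67 to 62 bases before the start, and the GC box in the second. The GC content was 60.8% for Cldn3 and 62.0% for Cldn4, beside a median of 52.4% over all windows.

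The first question was how the genes ran with age along the cortical line. Cldn3, Cldn4, Cldn7 and Plet1 were present in E13.5 TEC, were near absent from fetal and newborn cTEC and were high again in the adult cTEC gate, whereas Cldn6 was high at E13.5 alone. From E13.5 TEC through the E15.5, E17.5 and NB libraries Cldn3 measured 24.7, 1.67, 0.456 and 0.0865 CPM, and then 63.9 and 37.9 CPM in adult cTEC replicates 1 and 2. Cldn4 measured 17.2, 1.06, 0.178 and 0.476 CPM at the same 4 stages, and 139 and 47.5 CPM in the adult replicates. The E15.5, E17.5 and NB libraries thus lay far below the E13.5 and the adult libraries for both genes. Cldn7 measured 48.3, 2.73, 0.267 and 0.216 CPM over the same stages, and 102 and 46.3 CPM in adult cTEC. Plet1 measured 16.3, 2.11, 2.12 and 1.64 CPM from E13.5 to NB, and 32.4 and 11.4 CPM in adult cTEC. The 3 lower Plet1 values overlapped in their 95% counting intervals, as did E13.5 with adult cTEC replicate 2 for Cldn7 and for Plet1.

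Cldn6 followed another course, with 89.1 CPM in E13.5 TEC (1234 UMIs), 2.62 and 1.04 CPM in E15.5 and E17.5 cTEC, and 0.0865 CPM in NB cTEC (2 UMIs). In adult cTEC it had 0 UMIs in replicate 1, where 3 counts would be 1.39 CPM, and 2 UMIs (0.495 CPM) in replicate 2. E13.5 was therefore the only library of the cortical line with more than 3 CPM of Cldn6. Its level at E13.5 was 34.0 times that at E15.5 (counting interval 26.8 to 43.7) and 85.3 times that at E17.5 (69.1 to 106). For Cldn3 the same ratios were 14.8 (10.8 to 20.5) and 54.2 (39.1 to 76.9), and for Plet1 they were 7.73 and 7.69. These are ratios of single libraries, and their intervals cover counting error only. E13.5 TEC were sorted without the cortical gate, so gate and age cannot be told apart in these ratios.

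**Figure D1:**
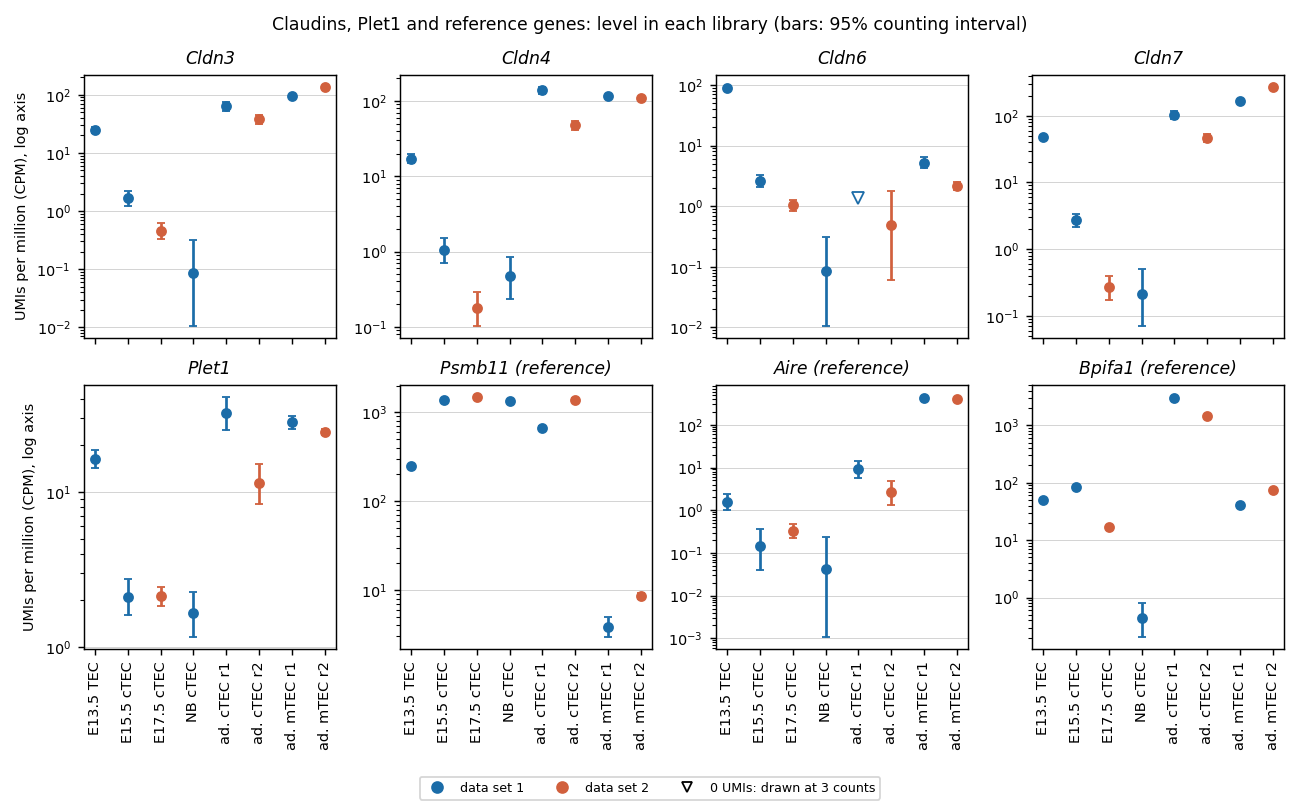
Level of each gene in each library, in CPM on a log axis, with 95% counting intervals as bars, data set 1 in blue and data set 2 in orange, and an open triangle at 3 counts where no UMI was found. Cldn3, Cldn4, Cldn7 and Plet1 dip from E15.5 to NB cTEC and are high in all 4 adult libraries, whereas Cldn6 falls from 89.1 CPM at E13.5 and has 0 UMIs in adult cTEC replicate 1.

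A straight slope over the stages was called for Cldn6 and for none of the genes with a dip. Among 14290 genes tested over the 6 cortical libraries, with data set as a term, 8.23% were called in either direction and 3.07% as falling with age. Those rising made up 5.16%. Of the 5 genes 1 was called: Cldn6 had a log2 slope of −3.12 for each stage (SE 0.47, adjusted p 0.017 by edgeR's quasi-likelihood test). The slopes of the others were 0.52 (SE 0.59) for Cldn3, 0.95 (0.61) for Cldn4, 0.45 (0.61) for Cldn7 and 0.33 (0.35) for Plet1, with edgeR adjusted p from 0.358 to 0.68. The Cldn6 call was lost without adult cTEC replicate 1 (slope −3.16, edgeR adjusted p 0.148) and without NB cTEC (−3.49, edgeR adjusted p 0.0637). It was also lost without E13.5 TEC, where the slope shrank to −1.69 (edgeR adjusted p 0.0827). Without E13.5 TEC, Cldn4 was called in its place, with a slope of 2.67 and an edgeR adjusted p of 0.047.

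Because the values dipped, adult cTEC were also set against the E15.5, E17.5 and NB cTEC libraries, a contrast chosen after the values had been seen. In it 5.52% of 14546 genes were called, 4.33% as higher in adult cTEC, and 4 of the 5 genes were higher. The log2 difference was 7.61 for Cldn4 (SE 0.41, edgeR adjusted p 0.00098), 6.55 for Cldn7 (SE 0.88, edgeR adjusted p 0.0129), 6.15 for Cldn3 (SE 0.83, edgeR adjusted p 0.0131) and 3.31 for Plet1 (SE 0.47, edgeR adjusted p 0.0152). Both adult libraries exceeded all 3 younger ones for each of these genes. Cldn6 gave a fitted difference of −2.09 (SE 1.88, edgeR adjusted p 0.516). With 1 adult library left out and no term for the data set, none of the 5 genes was called by edgeR, although the 4 rises had an unadjusted p under 0.05 in each case and ranged from 2.58 for Plet1 to 7.85 for Cldn4. Also with no term for the data set, 2 genes were called without E17.5 cTEC, Cldn4 and Plet1. In the fit without E15.5 cTEC, again with no such term, 3 were called and Plet1 was not (edgeR adjusted p 0.0573).

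Other tight junction genes were counted in the same contrast. Of 21 other claudins 9 could be tested and 3 were higher in adult cTEC, namely Cldn10 (log2 difference 6.92, SE 0.59), Cldn13 (7.79, SE 1.09) and Cldn23 (5.06, SE 0.8). None of the 9 was called lower. The median over the 9 was 2.70, beside −0.08 over all genes tested. Of 16 tight junction partners 5 were higher and none lower, with Crb3, a polarity protein of the apical membrane, at 5.88 (SE 0.64) and F11r, the junctional adhesion molecule, at 2.81 (SE 0.52), and the median of the 16 was 0.46. Of 9 adhesion genes 1 was higher and none lower, with a median of 0.27. Among 10 transcription factors of epithelial barriers only Ehf was called (4.28, SE 0.37), with a median of 1.35. Of 10 other putative progenitor markers 3 were higher, Krt14 (3.03, SE 0.28), Ly6a (6.04, SE 0.89) and Krt19 (4.83, SE 0.94), with a median of 1.39. For the slope over all 6 libraries, 4 of these 10 markers were called as rising, among them Ly6a (2.64 per stage, SE 0.31), Pdpn (0.78, SE 0.09) and Itga6 (0.39, SE 0.07), with a median of 0.43 beside 0.00 for all genes. In the same edgeR fit none of 8 other claudins, 16 tight junction partners, 9 adhesion genes and 10 barrier factors was called. At an unadjusted p under 0.05 these lists held 5, 2, 1 and 3 genes. DESeq2 called 4, 1, 1 and 2, beside 2938 of all 14290 genes tested, against 1176 by edgeR.

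The adult cTEC values were not spread evenly over the sorted cells. When the cells were clustered, the largest cluster of adult cTEC replicate 1 held 425 of 493 cells (86.2%) and had Psmb11, the catalytic subunit of the cortical thymoproteasome, at 773 CPM. Its Cldn3 was 4.44 CPM, its Cldn4 5.0, its Cldn7 2.78 and its Plet1 5.0. A cluster of 59 cells (12.0%), led by S100a8 and Reg3g, had Psmb11 at 25.9 CPM, Cldn3 at 420, Cldn4 at 944, Cldn7 at 698 and Plet1 at 194 CPM. That cluster was made up mostly of adult mTEC, which gave 512 of its 573 cells, so its leading genes are largely those of mTEC. These 59 cells held 94.2% of the library's Cldn3 UMIs, 97.0% of Cldn4, 97.7% of Cldn7 and 85.7% of Plet1. The same cluster had 20300 CPM of Bpifa1, a secreted protein of airway epithelium, against 129 CPM in the largest cluster.

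Replicate 2 had the same arrangement in different proportions. Its largest cluster held 484 of 535 cells (90.5%), with Psmb11 at 1470 CPM and Cldn3, Cldn4, Cldn7 and Plet1 at 1.07, 2.68, 0.536 and 1.34 CPM. A cluster of 26 cells (4.86%), led by Bpifa1 and Spink5, had Cldn3 at 644, Cldn4 at 814, Cldn7 at 599 and Plet1 at 209 CPM, with Psmb11 at 209 and Bpifa1 at 32800 CPM. These cells too were clustered with adult mTEC, which gave 293 of the 320 cells of the cluster. All 51 cells outside the largest cluster (9.53%) held 97.4%, 94.8%, 98.9% and 89.1% of the Cldn3, Cldn4, Cldn7 and Plet1 UMIs. Clusters were made from all variable genes, so these values are a description, without a test. Summed over all epithelial-like cells, 8 markers of secretory airway cells were at 1660 to 3350 CPM in adult cTEC, against 7.57 to 83.6 CPM in the 4 younger libraries. At least 7 of the 8 were detected in adult cTEC, but most of the sum was Bpifa1, at 3020 and 1450 CPM in replicates 1 and 2. In adult mTEC the sum was 838 and 1610 CPM, with only 40.6 and 75.5 CPM from Bpifa1, so the list was not particular to adult cTEC. The 8 mesenchymal markers were at 318 to 510 CPM against 4.48 to 30.7 CPM, and the part of either list in the adult rise was not tested.

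**Figure D2:**
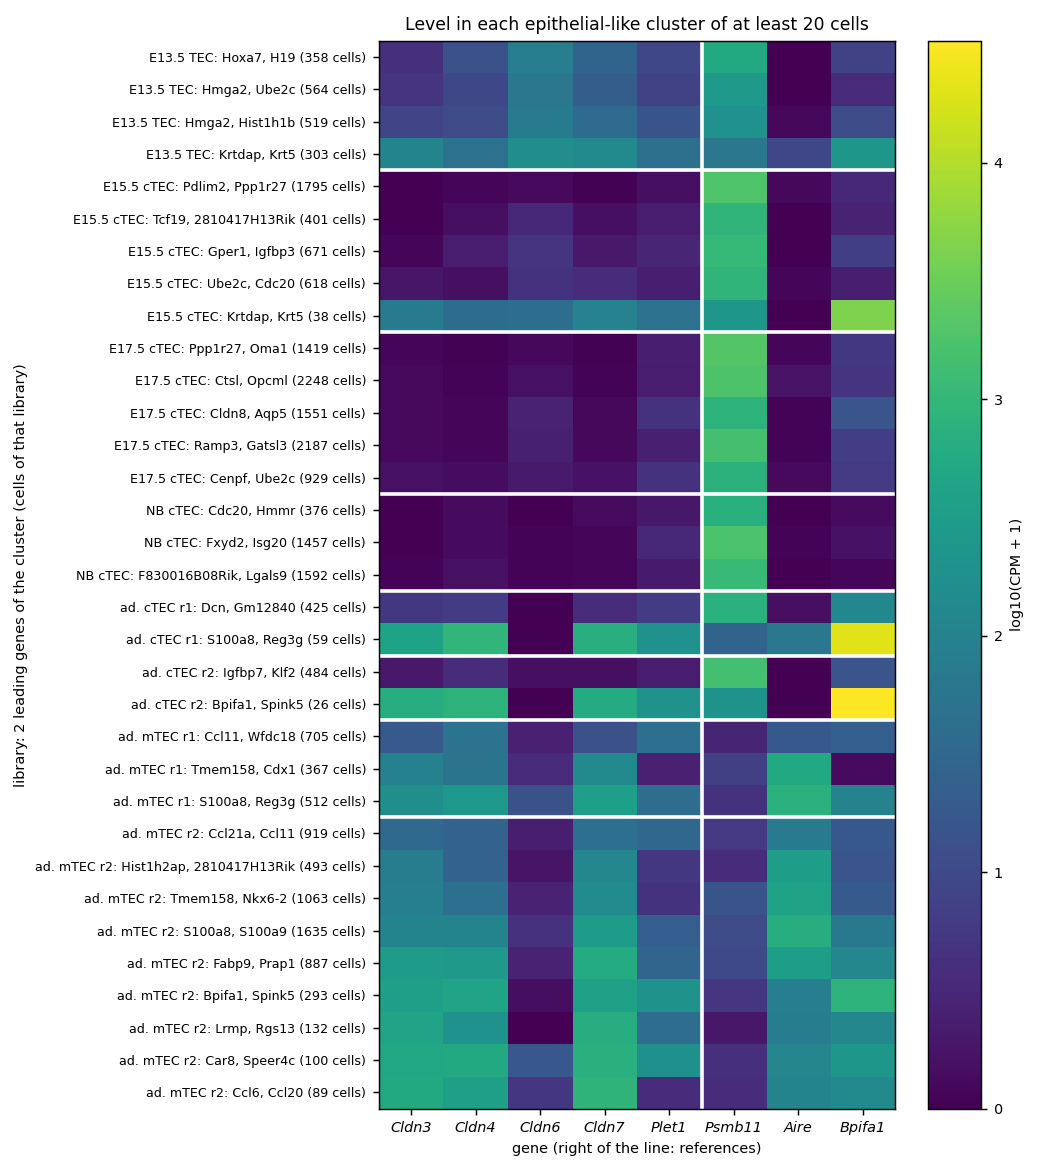
Level of the 5 genes and the 3 references, as log10 of CPM + 1, in each epithelial-like cluster of at least 20 cells, with the library, the leading genes and the number of cells of each cluster at the left. In adult cTEC the Cldn3, Cldn4, Cldn7 and Plet1 values are high in the clusters of 59 and 26 cells and low in the clusters of 425 and 484 cells, and among the clusters drawn for E13.5 and E15.5 they are highest in those led by Krtdap and Krt5. The parathyroid-like and thyroid-like clusters are not drawn, and at E13.5 they had more Cldn3 (190 and 180 CPM) than the Krtdap cluster (109 CPM).

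The split was also made on 2 cortical transcripts alone, without clusters. Each cell was thinned to 2000 UMIs, so that depth did not set the chance of detection, and cells were divided by whether they held a UMI of Psmb11 or of Prss16, the thymus-specific serine protease of cTEC. In adult cTEC replicate 1, Cldn4 was detected in 3.85% of 260 cells with a cortical transcript (exact 95% binomial interval 1.86 to 6.96) and in 16.7% of 168 cells without one (11.4 to 23.2). In replicate 2 it was detected in 0.794% of 378 cells with and in 17.4% of 144 cells without. The intervals did not overlap in either replicate. Cldn3 was detected in 2.31% and 16.7% of these cells in replicate 1 and in 0% (0 of 378 cells, which allows up to 0.794%) and 14.6% in replicate 2. Cldn7 was in 9 of 260 and in 26 of 168 cells in replicate 1, and gave 0.529% and 16.7% in replicate 2. Plet1 gave 1.15% and 6.55%, and 0.265% and 7.64%. All 4 genes were thus higher in cells without a cortical transcript in both replicates. The median depth before thinning was 4846.5 UMIs with and 3615.5 without a cortical transcript in replicate 1, and 7917.5 and 5884.5 in replicate 2.

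Among cells with a cortical transcript the adult rise differed in size between the replicates. At full depth, such cells had Cldn3 at 33.6 CPM in adult cTEC replicate 1 and at 9.52 in replicate 2, Cldn4 at 82.0 and 9.23, Cldn7 at 84.5 and 8.66, and Plet1 at 12.4 and 2.60 CPM, from 9 to 33 UMIs of each gene in replicate 2. In the E15.5, E17.5 and NB libraries the same cells had at most 0.841, 0.914, 1.68 and 2.12 CPM. In adult cTEC, most Cldn3, Cldn4 and Cldn7 UMIs of the chosen cells came from outside the largest clusters. The chosen cells of replicates 1 and 2 held 54 and 33 Cldn3, 132 and 32 Cldn4, and 136 and 30 Cldn7 UMIs. All cells of the largest clusters held 8 and 4, 9 and 10, and 5 and 2. Where the cells were chosen after thinning, the gap between the replicates was wider, with Cldn4 at 50.3 CPM in replicate 1 and at 1.91 CPM (6 UMIs) in replicate 2. In a fit on the cells chosen at full depth, 1.44% of 14186 genes were called, and 3 of the 5 were higher in adult than in younger cTEC, with log2 differences of 6.33 for Cldn4 (SE 0.45, edgeR adjusted p 0.0117), 5.82 for Cldn7 (SE 0.76, edgeR adjusted p 0.0282) and 5.30 for Cldn3 (SE 0.81, edgeR adjusted p 0.0421). Plet1 was at 1.81 (SE 0.69) and was no longer called (edgeR adjusted p 0.215). With adult cTEC replicate 1 left out and no data set term, the differences were 4.31 for Cldn4, 3.74 for Cldn7, 4.42 for Cldn3 and 0.59 for Plet1, and without replicate 2 they were 7.20, 6.75, 5.94 and 2.55. None was called by edgeR in either case, with 3 and 4 of the 5 genes at an unadjusted p under 0.05. The slope over all 6 libraries, fitted on the same cells, called 9.4% of 14219 genes and again Cldn6 alone of the 5 (−3.07, SE 0.46, edgeR adjusted p 0.0133). In adult cTEC replicate 1, 13 thymocyte-like cells deep enough to be thinned held no UMI of the 5 genes, which allows up to 23.1% of such cells. Of the 13, 3 held Bpifa1 (23.1%, interval 5.04 to 53.8) and 5 held Psmb11 (38.5%, 13.9 to 68.4). Before thinning, the 14 thymocyte-like cells of this library together held 1 Cldn4 and 1 Cldn7 UMI. These are 12.5 CPM each, against 5.0 and 2.78 CPM in the largest cluster. Those cells had a median of 4646 UMIs, against 3955 in the epithelial-like cells, and Bpifa1 was in 27.6% of the latter. In replicate 1 there were 3.43 Cldn3, 3.86 Cldn4, 2.15 Cldn7 and 3.86 Plet1 UMIs per 100 Bpifa1 UMIs in the largest cluster, against 2.07, 4.64, 3.43 and 0.954 in the cluster of 59 cells. In replicate 2 the values were 7.41, 18.5, 3.70 and 9.26 against 1.96, 2.48, 1.83 and 0.637, from 2 to 10 UMIs of each gene in the largest cluster. The part of free RNA in the low values of the largest clusters was not tested.

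**Figure D3:**
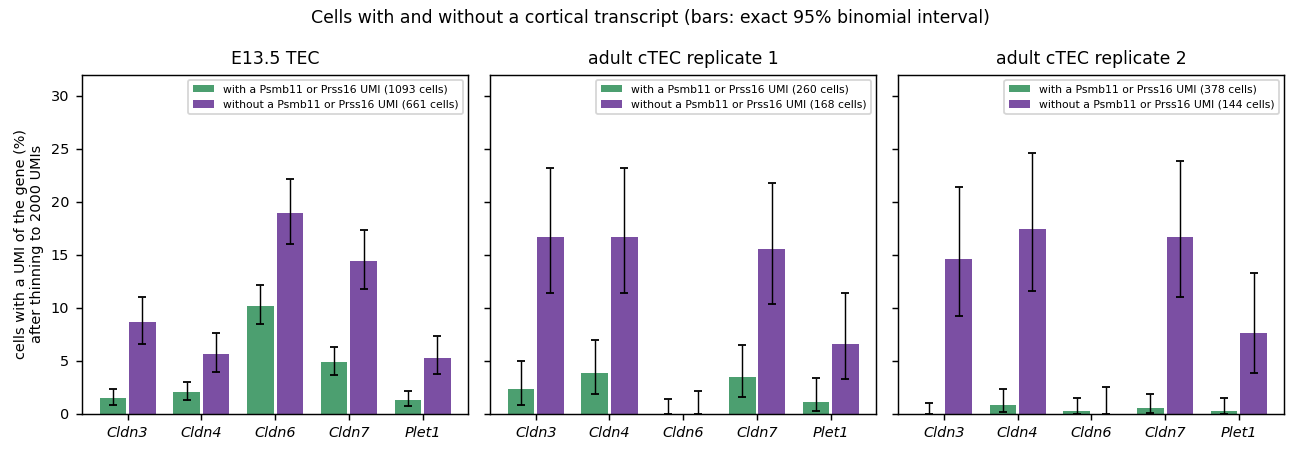
Percent of cells with a UMI of each gene after thinning to 2000 UMIs, in cells with (green) and without (purple) a Psmb11 or Prss16 UMI, with exact 95% binomial intervals, for E13.5 TEC and both adult cTEC libraries. Purple bars stand above green ones for Cldn3, Cldn4, Cldn7 and Plet1 in all 3 libraries, and Cldn6 shows the same at E13.5, with 18.9% against 10.2%.

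E13.5 TEC, sorted without a cortical gate, showed a similar division. After thinning, Cldn6 was in 236 of 1754 cells, Cldn7 in 8.44%, Cldn3 in 4.16%, Cldn4 in 3.36% and Plet1 in 2.79%, and before thinning the shares of Cldn6, Cldn7, Cldn3, Cldn4 and Plet1 were 39.9%, 22.1%, 10.6%, 10.9% and 10.4%. Cells without a Psmb11 or Prss16 UMI (661) had more of each gene than cells with one (1093). Cldn3 was detected in 57 of 661 (8.62%) against 16 of 1093 cells (1.46%), and Cldn7 in 14.4% (11.8 to 17.3) against 4.85% (3.65 to 6.29). Cldn6 differed least in ratio, with 18.9% (16.0 to 22.1) against 10.2% (8.43 to 12.1).

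A cluster of 303 E13.5 cells (17.2%), led by Krtdap and the basal keratin Krt5 and picked here for its Cldn3, held 83.3% of the Cldn3 UMIs, 54.6% of Cldn4, 52.9% of Cldn7, 51.8% of Plet1 and 36.4% of Cldn6. It had 109 CPM of Cldn3 against 5.07 CPM in the other 1455 cells, 44.8 against 9.70 of Plet1, and 172 against 69.9 of Cldn6. Psmb11 was at 59.7 CPM there and at 294 CPM elsewhere, and Bpifa1 at 240 against 6.14 CPM. At E15.5 the same cluster had 38 cells, with Cldn3 at 69.6, Cldn4 at 38.0, Cldn6 at 41.1, Cldn7 at 98.1 and Plet1 at 47.5 CPM, and those cells held from 18.1% (Cldn6) to 47.8% (Cldn3) of the UMIs of each gene in that library.

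In E15.5, E17.5 and NB cTEC each of the 5 genes was detected in at most 0.375% of thinned cells (Plet1 at E17.5). In NB cTEC the shares were 0.0291% for Cldn3, 0.0582% for Cldn4 and Cldn7 and 0.320% for Plet1, and Cldn6 was in 0 of 3434 cells, which allows up to 0.0874%. Thymocyte-like cells of the NB library held Cldn4 and Plet1 in 1 of 170 cells each (0.588%, interval 0.0149 to 3.23) and the other 3 genes in none (0 of 170, which allows up to 1.76%), with median depths of 8626 UMIs in these cells and 6025 in the epithelial-like ones. Psmb11 was in 85.3% of the same thymocyte-like cells and in 82.5% of the epithelial-like ones, so these cells carried cortical RNA and do not give a background share. Before thinning, the shares in NB cTEC were 0.0582% for Cldn3 and 1.02% for Plet1.

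The second question was how the adult lineages differed. Over all sorted cells, Cldn3 and Cldn7 were lower in cTEC than in mTEC, as was Cldn6 by edgeR on few UMIs, and the same was not shown for Cldn4 and Plet1. In adult mTEC, Cldn3 measured 93.8 CPM in replicate 1 and 136 in replicate 2, Cldn7 168 and 270, and Cldn6 5.23 and 2.15. Both mTEC libraries exceeded both cTEC libraries for these 3 genes. Cldn4 measured 117 and 109 CPM and Plet1 28.2 and 24.3 CPM in mTEC, values that lay between those of the 2 cTEC libraries.

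Of 15627 genes tested over the 4 adult libraries, with data set as a term, 32.4% were called, 21.2% as lower in cTEC, and 3 of the 5 genes were lower. The log2 difference of cTEC minus mTEC was −1.70 for Cldn7 (SE 0.42, edgeR adjusted p 0.00079) and −1.27 for Cldn3 (SE 0.39, edgeR adjusted p 0.0085), and it missed the threshold for Cldn4 (−0.54, SE 0.39, edgeR adjusted p 0.315) and Plet1 (−0.51, edgeR adjusted p 0.392). For Cldn6 the fit gave −3.36 (SE 1.12, edgeR adjusted p 0.015) on 0 and 2 UMIs in cTEC, and it was not called by DESeq2 (adjusted p 0.204) or by edgeR with no term for the data set (adjusted p 0.0554). In data set 1 the mTEC level of Cldn6 was 3.77 times that of 3 cTEC counts, and the lower counting bound of mTEC over cTEC was 2.998. In data set 2 Cldn6 was 4.35-fold higher in mTEC (interval 1.18 to 36.3). The median over the 5 genes was −1.27, beside −0.14 over all genes tested. This comparison shares the 2 adult cTEC libraries with the comparison by age.

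Each data set gave its own ratio. In data set 1 mTEC over cTEC was 1.47 for Cldn3, 1.64 for Cldn7, 0.84 for Cldn4 and 0.868 for Plet1 (counting interval 0.674 to 1.13), and in data set 2 the ratios were 3.60, 5.84, 2.29 and 2.14. Every ratio was larger in data set 2, and those of Cldn4 and Plet1 lay on opposite sides of 1. The fits that left out 1 adult library had no term for the data set, so library and term changed together. Without adult cTEC replicate 2 the difference of both Cldn4 and Plet1 turned to 0.12, and without adult cTEC replicate 1 Cldn4 was called lower (−1.24, edgeR adjusted p 0.0443). Only 1 of the 5 genes, Cldn4, was called without adult cTEC replicate 1. Without adult cTEC replicate 2 or adult mTEC replicate 2 the count was 0 by edgeR, with 3 and 2 genes at an unadjusted p under 0.05.

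When adult cTEC were limited to cells with a Psmb11 or Prss16 UMI, a choice made after the values had been seen, 4 of the 5 genes were called, all lower than in mTEC, beside 25.8% of 15539 genes called in either direction. The log2 difference was −2.96 for Cldn7 (SE 0.77, edgeR adjusted p 0.0133), −2.72 for Cldn3 (SE 0.53, edgeR adjusted p 0.0027), −2.20 for Plet1 (SE 0.53, edgeR adjusted p 0.0088) and −2.04 for Cldn4 (SE 0.61, edgeR adjusted p 0.0268). Cldn6 was at −3.08 and was not called (edgeR adjusted p 0.0777). In those cells Cldn4 had 82.0 CPM in cTEC replicate 1 and 9.23 in replicate 2, against the 117 and 109 CPM of mTEC. Cells were selected here by transcripts whose level differs between the lineages, while mTEC were left whole. At full depth a UMI of either transcript does not mark cortical cells alone. Adult mTEC cells with such a UMI held 5246399 of 16622919 UMIs in replicate 1 and 24580295 of 67324065 in replicate 2.

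**Figure D4:**
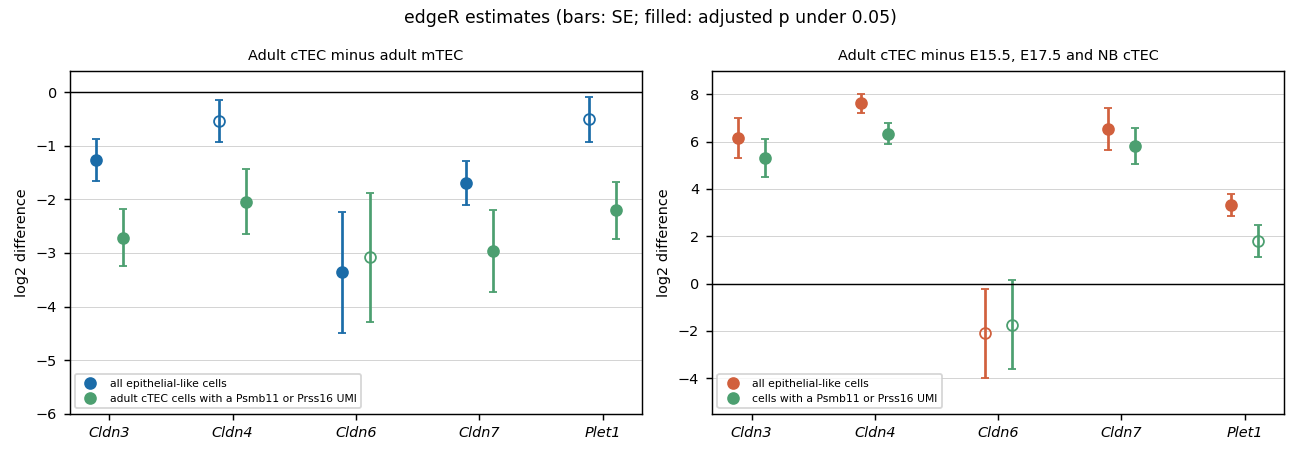
Fitted log2 differences with standard errors as bars, filled where the edgeR adjusted p was under 0.05. Left, adult cTEC minus adult mTEC with all epithelial-like cells (blue) and with adult cTEC cells that held a Psmb11 or Prss16 UMI (green). Right, adult cTEC minus E15.5, E17.5 and NB cTEC for all such cells (orange) and for cells with a Psmb11 or Prss16 UMI (green), where Plet1 at 1.81 is no longer called.

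Other claudins did not all run with Cldn3 and Cldn7 between the adult lineages. Of 21 claudins 14 could be tested, 2 were higher in cTEC and 4 lower, beside 11.2% of all genes higher and 21.2% lower. The shares over all genes are the background for the lists that follow too, and with 9 to 16 genes in a list such counts are a description. Cldn8 was higher in cTEC (log2 difference 4.81, SE 0.52), with 22.7 and 42.6 CPM in cTEC against 1.74 and 0.713 in mTEC, as was Cldn10 (1.38, SE 0.43). Cldn13, a claudin of rodents, was lower (−4.63, SE 0.55), as was Cldn9 (−3.06, SE 0.68), the neighbour of Cldn6. Cldn18 had no UMI in either cTEC library. Its mTEC level was 1.56 times that of 3 cTEC counts in data set 1 and 2.0 times in data set 2. The lower counting bounds of mTEC over cTEC were 1.20 and 1.60. The median over the 14 was −1.20, or −0.78 with the 2 genes that had no cTEC UMI set at 3 counts. Of 16 tight junction partners 6 were lower in cTEC, among them Magi1 (−2.11, SE 0.45), Crb3 (−1.92, SE 0.43) and Lsr (−1.60, SE 0.39), a protein of tricellular junctions, and 1 was higher, the polarity gene Pard3 (1.35, SE 0.4). The median of the 16 was −0.54.

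Of 9 adhesion genes 3 were higher in cTEC (Dsp 1.68, Cdh3 1.09 and Jup 0.93) and 1 was lower, with a median of 0.62. Among 10 barrier transcription factors Grhl2 was higher (1.61, SE 0.43) and 4 were lower, among them Ovol1 (−1.66, SE 0.52), with a median of −0.88. Of 10 other putative progenitor markers Trp63 (2.39, SE 0.39) and Pdpn (1.74, SE 0.39) were higher, and Krt14 (−1.85, SE 0.41) and Krt5 (−1.19, SE 0.39) lower, with a median of −0.23.

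Within adult mTEC the genes were widely but unevenly detected. After thinning, Cldn7 was in 18.9% of cells of replicate 1 and 33.4% of replicate 2, Cldn3 in 11.7% and 19.7%, Cldn4 in 15.7% and 17.2%, Plet1 in 6.06% and 4.15%, and Cldn6 in 0.568% and 0.455%. The shares of Cldn3 and Cldn7 were larger in replicate 2 by more than their intervals, and that of Plet1 was larger in replicate 1 (4.93 to 7.35 against 3.64 to 4.71). Before thinning Cldn7 was in 43.5% and 71.3% of cells. Among the cells that passed the filters, no cluster named as another cell type held 10 cells of these libraries. Among all deposited cells, 13 of replicate 2 fell in a thymocyte-like cluster, and shares were not computed for them, so no background share is given.

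The clusters of mTEC ranged widely. In replicate 2 the 919 cells led by the chemokine Ccl21a had Cldn3 at 34.2, Cldn4 at 24.8, Cldn7 at 43.1 and Plet1 at 30.8 CPM. In 1063 cells led by Tmem158 and Nkx6-2, with Aire at 402 CPM, Plet1 was at 3.55 CPM while Cldn7 was at 151 CPM. The 1635 cells led by S100a8 and S100a9 had more Aire (637 CPM), with Plet1 at 21.3 and Cldn7 at 316 CPM. The 293 cells led by Bpifa1 and Spink5 had Cldn3 at 350, Cldn4 at 438, Cldn7 at 385 and Plet1 at 209 CPM. Clusters of 132 cells led by Lrmp and Rgs13, genes of tuft cells, of 100 cells led by Car8, and of 89 cells led by Ccl6 and Ccl20 had the highest Cldn3 and Cldn7, at 430 to 553 CPM and 653 to 879 CPM. Plet1 was 39.7, 186 and 2.82 CPM in these 3 clusters and so did not follow Cldn3. In replicate 1 the 705 cells led by Ccl11 had Cldn7 at 12.1 and Plet1 at 42.9 CPM, the 367 cells led by Tmem158 had 146 and 1.61 CPM, and the 512 cells led by S100a8 and Reg3g had 357 and 40.1 CPM.

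Aire, the transcriptional regulator of peripheral antigens in mTEC, was found with Plet1 in fewer cells than their shares give. In replicate 1, 4 thinned cells held both Plet1 and Aire where the product of their shares gives 31.7, a ratio of 0.126, and in replicate 2 the ratio was 0.622. For Cldn7 and Aire the ratio was 1.62 in replicate 1 and 1.03 in replicate 2. Cldn3 gave 1.03 and 0.808 and Cldn4 gave 1.07 and 0.862, so at this setting the replicates lay on opposite sides of 1 for both. The side of replicate 1 depended on the setting. There Cldn3 and Cldn4 gave 0.993 and 0.707 at 1000 UMIs, and 0.916 and 0.878 with at least 2 Aire UMIs. In terms of level, Plet1 was 6.50 CPM in Aire-positive and 43.0 CPM in Aire-negative cells of replicate 1, and 13.1 and 33.2 CPM in replicate 2. Cldn7 was 230 and 125 CPM in replicate 1 and 262 and 276 CPM in replicate 2. The clusters with most Aire still held Plet1. In replicate 1 the cluster led by S100a8 and Reg3g had Aire at 769 and Plet1 at 40.1 CPM. In replicate 2 the cluster led by S100a8 and S100a9 had 637 and 21.3 CPM, beside 24.3 CPM of Plet1 in the whole library.

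The genes were found together in cells more often than their shares give. Ratios of observed to expected cells were formed where at least 5 cells were expected, and at 2000 UMIs all were above 1 for the pairs of these genes, with 5 of 5 pairs in E13.5 TEC (1.13 to 2.92), 6 of 6 in adult mTEC replicate 1 (1.16 to 2.55) and 7 of 7 in replicate 2 (1.20 to 2.06). Cldn3 and Cldn4 gave 2.55 and 1.74 in the mTEC replicates, and Cldn3 and Cldn7 gave 2.40 and 1.55 there and 2.92 at E13.5. Plet1 went with Cldn4 at 1.79 and 2.06 and with Cldn7 at 1.16 and 1.24. The pair of Cldn7 and Plet1 in replicate 1 turned with depth, since at 4000 UMIs per cell 28 cells held both where 38.6 were expected, a ratio of 0.725. At 1000 UMIs Cldn6 and Cldn7 in replicate 2 were together in 1 cell where 2.35 were expected. In adult cTEC fewer cells were expected than the limit, and Cldn3 and Cldn4 were together in 24 cells where 3.02 were expected in replicate 1 and in 15 where 1.13 were expected in replicate 2. Ratios above 1 of this kind arise wherever the genes share a cell type within a library, and no test was made, since cells of 1 library are not replicates.

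**Figure D5:**
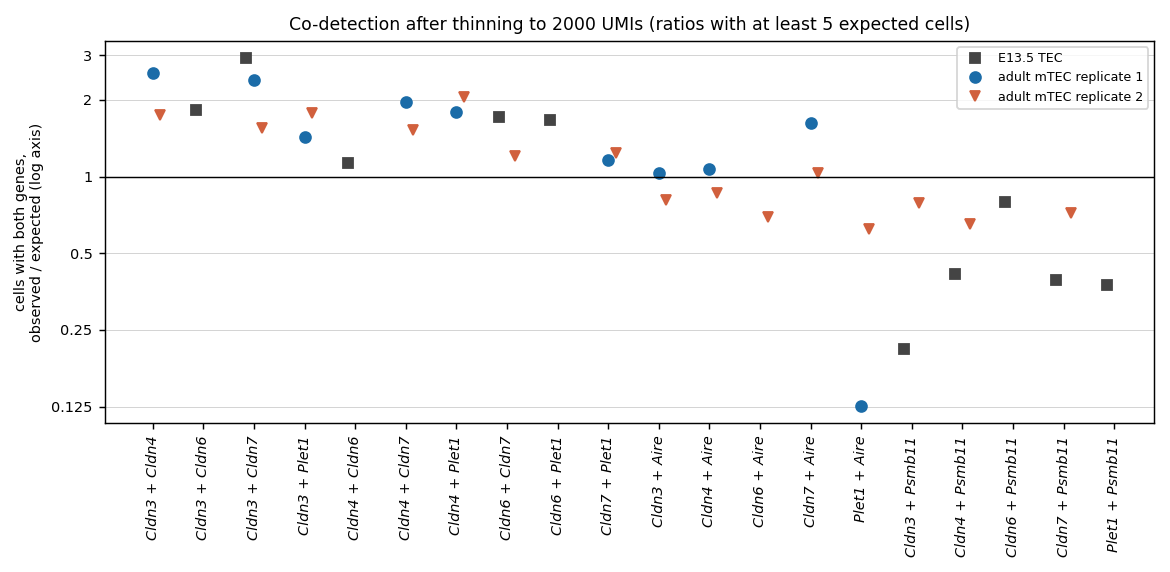
Ratio of observed to expected cells with both genes of a pair, on a log axis, after thinning to 2000 UMIs, for E13.5 TEC and both adult mTEC libraries, where at least 5 cells were expected. Pairs of the 5 genes stand above 1, while Plet1 with Aire is at 0.126 and 0.622 and pairs with Psmb11 stand below 1 at E13.5.

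With Psmb11 the ratios at E13.5 were 0.21 for Cldn3, 0.375 for Plet1, 0.394 for Cldn7, 0.416 for Cldn4 and 0.793 for Cldn6. In adult cTEC they were 0.149 and 0 for Cldn3, 0.2 and 0.126 for Cldn4, 0.217 and 0.0676 for Cldn7 and 0.181 and 0 for Plet1, in replicates 1 and 2. With Bpifa1 the ratio was above 1 wherever it could be formed. It was 2.03 for Cldn3, 2.29 for Cldn4 and 2.07 for Cldn7 in adult cTEC replicate 1, 1.37, 1.36 and 1.13 in adult mTEC replicate 2, and 2.79 for Cldn6 at E13.5.

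Cells with a UMI of Plet1, Cldn3 and Cldn4 at once, the combination proposed for progenitors, made up at most 1.64% of any library at 2000 UMIs per cell. At this depth a cell that expresses a gene often has no UMI of it, so the shares and limits are for detection and do not bound how many cells express all 3 genes. After thinning there were 7 of 428 cells in adult cTEC replicate 1 (1.64%, exact interval 0.66 to 3.34) and 6 of 522 in replicate 2 (1.15%, 0.423 to 2.48), where the shares of the genes alone give 0.0987 and 0.0259 cells. In adult mTEC there were 13 of 1585 cells (0.82%, 0.437 to 1.40) and 38 of 5492 (0.692%, 0.49 to 0.948), with 1.76 and 7.73 expected. The intervals of all 4 adult libraries overlapped. At E13.5 there was 1 such cell of 1754 (0.057%), with 0.0686 expected. None was found in E15.5 (0 of 3545 cells, which allows up to 0.0846%), E17.5 (0 of 8261, up to 0.0363%) or NB cTEC (0 of 3434, up to 0.0874%). Of the 38 cells of mTEC replicate 2, 0% held Psmb11 and 10.5% Aire, against 1.30% and 40.4% of the other cells, and their median depth before thinning was 6582 UMIs against 11631.5.

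Over the 8 libraries the genes most like Cldn3, by Pearson's r of log2(CPM + 10), were Cldn7 (r 0.996), Krt15 (0.985) and Hspb1 (0.982), and those most like Plet1 were Nradd (0.986), Fgfbp1 (0.979) and Hspb1 (0.979). Cldn4 was closest to Nucb2 (0.988), Plac8 (0.985) and Ces1d (0.985). Cldn6 was closest to Igf2 (0.981), the fetal growth factor, Bex4 (0.98) and Suv39h2 (0.973), and its r with the other 4 genes was −0.0668 to 0.181. These coefficients describe 8 libraries of 6 groups that differ in depth and data set. In single mTEC, where the lower phi of the 2 replicates ranked the genes, Cldn3 was closest to Tspan1 (0.214), Cldn7 (0.193) and Cldn4 (0.167), and Cldn4 to the cell cycle inhibitor Cdkn1a (0.177) and Cldn7 (0.172). Plet1 was closest to Anxa1 (0.112) and Hspb1 (0.11). At E13.5 Cldn3 was closest to Emp1 (0.237) and Mt1 (0.228), Cldn4 to Pvrl4 (0.194) and Socs2 (0.193), Cldn7 to Mt1 (0.216) and Pvrl4 (0.21), and Cldn6 to Zfp750 (0.121), a regulator of epidermal differentiation. All phi values were low, and none is a test.

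Genes on the opposite strand overlap 2 of the genes. Wbscr25, across Cldn3, had 0 to 11 UMIs in the 6 cortical libraries and 57 and 319 in adult mTEC, and Plet1os, across Plet1, had at most 24 UMIs in any library. Whether the counting used the strand is not given in the sources used here, so the reads of these pairs cannot be told apart with certainty.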

How the data were processed

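Mouse TEC libraries (8, in 6 groups by the labels' cell type and age) were made by the authors with Chromium version 2 chemistry. They counted UMIs per gene and cell with Cell Ranger, and the submitters' processing notes name Cell Ranger 2.0.1, STAR 2.5.1b, bcl2fastq 2.17 and mm10, while the headers of the data set 2 matrices name a later Cell Ranger. The deposited values are raw counts, and gene and barcode tables (other text, not measurements) were used as deposited. No per-sample columns were left unused (0).

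The limits stated in the study's methods were applied (at most 5% mitochondrial UMIs and 5000 detected genes), which kept 25750 of 28334 cells. Cells were log-normalised and clustered per data set on 2000 variable genes and 20 components, with a graph of 20 neighbours and the Leiden method at resolution 0.8 (Python 3.11.15, scikit-learn 1.9.0, igraph 0.11.9, leidenalg 0.10.2, numpy 2.4.6, scipy 1.17.1). Thymocyte-like, parathyroid-like and thyroid-like clusters were named where at least 3 markers and over 50% of the list stood 4-fold above other cells and the leading gene was a marker, a condition added after the data were seen. They were left out. The other cells are called epithelial-like. No doublet caller was run, and the 10% of cells with most UMIs were left out as a check.

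Counts were summed per library and fitted in edgeR 4.0.16 (R 4.3.3, quasi-likelihood test, TMM scaling, filterByExpr, Benjamini-Hochberg over all genes tested, threshold 0.05). The fits were the slope on stage rank over 6 cortical libraries and adult cTEC against adult mTEC over 4, each with data set as a term. DESeq2 1.42.0, other scalings and filters and the leaving out of single libraries were alternatives, and the fits were tested on simulated data. Levels are CPM with exact 95% Poisson intervals, shares have exact binomial intervals after thinning to 2000 UMIs per cell (428 to 8261 cells per library), and a count of 0 allows 3 counts. Intervals cover counting error only. Cells of 1 library are not replicates, so shares and co-detection have no test. Depth per library is given in the report.

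The 5 genes and the gene lists were chosen with earlier results of these data known. Named are the 5 genes, the 3 references, the 3 genes of each list with the smallest adjusted p in each direction or fewer, the 3 genes most like each of the 5 over libraries (mean CPM of at least 10), the 5 most like by phi of detection in cells (at least 2% of cells and 50 cells with the gene) or fewer, and the leading genes of clusters. In adult cTEC none of the 5 was in 50 cells. Loci are from GENCODE on GRCm38, the same assembly as mm10, and all 5 genes had a promoter in the RefSeq table. Values of some single genes of the adhesion and barrier factor lists are not reported here.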

Additional observations from a re-analysis of the deposited data

Results flagged for a closer look

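Cells left out of the comparisons also carried these genes, above the level of the epithelial-like cells of the same library, and this drew attention to them. In E13.5 TEC, 123 parathyroid-like cells had Cldn3 at 190 CPM (counting interval 156 to 230), Cldn4 at 71.6, Cldn6 at 243 and Cldn7 at 223 CPM. The 100 thyroid-like cells of that library had Cldn3 at 180, Cldn4 at 37.3, Cldn6 at 432 (382 to 485) and Cldn7 at 224 CPM. The E13.5 epithelial-like cells had 24.7, 17.2, 89.1 and 48.3 CPM of the same genes. Plet1 did not stand above them, with 19.2 CPM in parathyroid-like and 7.76 CPM in thyroid-like cells (interval 2.52 to 18.1) against 16.3 CPM. The claudin values came from 24 to 278 UMIs per gene and group of cells.

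In NB cTEC, 170 thymocyte-like cells had Cldn4 at 7.76 CPM against 0.476 CPM in the epithelial-like cells, from 12 UMIs in 10 cells, with at most 3 UMIs in 1 cell. The same cells had Psmb11 at 1670 CPM, and the epithelial-like cells 1340 CPM. These values come from single libraries and have no replicate check.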

How the results depend on the processing

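The count of genes called among the 5 was 1 for the slope over the cortical libraries under every planned scaling, filter, test and choice of cells, from 0 to 1 when single libraries were left out, and 4 with adult set against younger cTEC. For adult cTEC against adult mTEC it was 3, or 2 with DESeq2 and with no term for the data set, 4 with cortical-transcript cells only, and from 0 to 2 when single libraries were left out. For adult against younger cTEC it was 4, 4 with DESeq2, 3 with cortical-transcript cells only, and from 0 to 4 with single libraries left out. On cortical-transcript cells without either adult cTEC library it was 0, with 0 and 8 genes called in all. Leaving out adult cTEC replicate 1 reversed the slopes of Cldn3 (−1.51), Cldn4 (−0.91), Cldn7 (−1.61) and Plet1 (−0.52), and leaving out adult cTEC replicate 2 reversed the difference from mTEC of Cldn4 (0.12) and Plet1 (0.12). Fewer libraries entered the fits with single libraries left out, and of these fits only the slopes kept the term for the data set. With single libraries left out, slopes ran from −1.51 to 1.98 for Cldn3, −0.91 to 2.67 for Cldn4, −1.61 to 2.01 for Cldn7, −0.52 to 1.18 for Plet1 and −3.64 to −1.69 for Cldn6, and the differences from mTEC from −1.24 to 0.12 for Cldn4 and −1.20 to 0.12 for Plet1. For Cldn6 they ran from −9.68, a fit on 0 UMIs in the remaining cTEC library, to −2.84, and it was not called in these fits or did not pass the filter (without adult mTEC replicate 1). Over all genes DESeq2 called 2938 against 1176 by edgeR for the slope, 2572 against 5063 between adult lineages and 1859 against 803 for adult against younger cTEC, and the cause was not tested. Without adult cTEC replicate 1 these edgeR counts were 24, 2874 and 10. Cldn6 between adult lineages was not called with DESeq2 (adjusted p 0.204) or with no term for the data set (0.0554). Scaling by library totals or median-of-ratios factors, no filter, all deposited cells and all clusters changed no call of the 5 genes.

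Of 52 co-detection ratios, 4 crossed 1 at 1000 UMIs per cell, 2 at 4000 UMIs, and 0 without the 10% of cells with most UMIs, and of 34 ratios with a reference 3 crossed with at least 2 reference UMIs. At 4000 UMIs Cldn7 with Plet1 in adult mTEC replicate 1 went from 1.16 to 0.725. Shares of cells moved with thinning depth, as depth sets detection. The labels give no replicate numbers that pair libraries. Data set was a term of the main fits, so adult cTEC and adult mTEC were compared within each data set. Adult cTEC depth limits Cldn6 to values above 0.743 to 1.39 CPM, the level of 3 counts.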
